A study of Homo sapiens with 36 samples.

Results

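The 43 genes described here encode the proteins that copy chromosomal DNA and the enzymes that supply its building blocks. They were taken by name for their known roles in replication, and each was read from 1 microarray probe, that of the highest mean level over the 36 arrays. Of the 43, 42 were measured among the 9902 genes tested. GINS1, a subunit of the replicative helicase, was detected on 0 of the 36 arrays and has no value here. By role the members comprised 10 genes of origin licensing, 6 of helicase activation (5 measured), 9 of the polymerases and primase, 8 of the sliding clamp, its loader and the single-strand binding protein, 3 of Okazaki fragment maturation and nuclease repair, 4 of nucleotide supply, and 3 of chromatin assembly and CDT1 destruction. CDC6 was detected on 27 of the 36 arrays and the other 41 measured members on all of them.

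ZR-75-1 is an established luminal cell line from a breast cancer, with receptors for estrogen, progesterone and androgen, and the study asked how progesterone and related steroids act on it with and without estrogen. RNA from 36 samples was hybridised to Illumina HumanWG-6 v3 BeadChips, in 9 groups of 4. Cells of passage 16 were held in medium stripped of steroids before treatment. The groups received 10 nM of estradiol (E2), the main natural estrogen, of progesterone (P4), of medroxyprogesterone acetate (MPA), of dihydrotestosterone (DHT), or of E2 cotreated with P4, MPA or DHT, each for 16 h, or ethanol as the vehicle at 2 ppm. A further group (E2L+P4) received E2 for 72 h and P4 for 16 h, at 10 nM each. The labels place the P4 within the final 16 h of the E2 exposure, whereas the methods place it afterwards, and no group received E2 alone for 72 h. The labels do not say whether the 4 samples of a group came from separate cultures, so that p-values measure only the spread between these samples. Every array measured the RNA of a whole well, in which a lower level in each cell and fewer cells in S phase cannot be told apart.

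Replication starts at origins, where the origin recognition complex with CDC6 and CDT1 loads the MCM ring onto DNA in G1. At the entry to S phase the ring is turned into an active helicase by CDC45 and the GINS complex, and polymerases then extend both strands on a sliding clamp while ribonucleotide reductase, thymidylate synthase and thymidine kinase supply deoxynucleotides. Most of these genes are transcribed in a burst at the G1 to S boundary by E2F factors, and estrogen is known to drive breast cancer cells of the luminal type through that boundary.

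Promoters of replication genes are known for the letters that E2F binds, and the 5 windows printed here are those of genes on which the later results turn. Each runs from 250 bases before to 50 bases after a RefSeq start (build GRCh38.p14), and where a gene had several windows the one with the most marked bases is shown. The RefSeq table used here matched 37 of the 43 members, with 47 windows. MCM4, MCM5, GINS4, POLD3, RPA2 and RPA3 had no entry. Capitals mark an E2F spelling (TTTCCCGC, TTTGGCGC, TTTCGCGC or TTTGCCGC) or CCAAT, both on either strand. CDC45 and GINS2, subunits of the replicative helicase, are shown at chr22:19479670-19479969 on the + strand and chr16:85688905-85689204 on the - strand. EXO1, a repair nuclease, is shown at chr1:241847954-241848253 on the + strand, PCNA, the sliding clamp, at chr20:5126573-5126872 on the - strand, and MCM2, a subunit of the helicase ring, at chr3:127598161-127598460 on the + strand.
CDC45: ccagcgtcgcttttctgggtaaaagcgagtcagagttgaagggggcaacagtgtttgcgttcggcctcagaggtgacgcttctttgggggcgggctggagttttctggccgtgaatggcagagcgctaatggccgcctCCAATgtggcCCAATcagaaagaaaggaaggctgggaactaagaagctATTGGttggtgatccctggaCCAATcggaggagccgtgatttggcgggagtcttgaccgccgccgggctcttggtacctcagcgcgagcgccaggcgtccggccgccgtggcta
GINS2: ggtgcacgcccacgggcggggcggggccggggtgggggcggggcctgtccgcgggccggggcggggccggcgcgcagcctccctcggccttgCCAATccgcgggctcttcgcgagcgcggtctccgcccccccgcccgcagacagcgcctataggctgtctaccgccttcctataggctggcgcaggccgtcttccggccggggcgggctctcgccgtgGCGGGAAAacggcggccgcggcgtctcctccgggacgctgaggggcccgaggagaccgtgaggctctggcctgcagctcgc
EXO1: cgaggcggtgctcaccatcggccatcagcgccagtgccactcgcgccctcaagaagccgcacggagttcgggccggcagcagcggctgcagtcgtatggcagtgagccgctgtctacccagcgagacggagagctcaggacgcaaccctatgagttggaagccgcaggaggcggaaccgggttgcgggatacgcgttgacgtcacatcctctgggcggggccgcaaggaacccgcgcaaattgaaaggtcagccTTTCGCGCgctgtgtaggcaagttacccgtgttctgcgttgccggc
PCNA: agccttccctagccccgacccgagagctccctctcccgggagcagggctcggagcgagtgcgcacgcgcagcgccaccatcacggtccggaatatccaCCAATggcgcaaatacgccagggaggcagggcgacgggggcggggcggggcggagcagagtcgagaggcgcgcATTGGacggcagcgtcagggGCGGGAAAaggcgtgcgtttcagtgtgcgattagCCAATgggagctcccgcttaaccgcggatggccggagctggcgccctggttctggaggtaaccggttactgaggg
MCM2: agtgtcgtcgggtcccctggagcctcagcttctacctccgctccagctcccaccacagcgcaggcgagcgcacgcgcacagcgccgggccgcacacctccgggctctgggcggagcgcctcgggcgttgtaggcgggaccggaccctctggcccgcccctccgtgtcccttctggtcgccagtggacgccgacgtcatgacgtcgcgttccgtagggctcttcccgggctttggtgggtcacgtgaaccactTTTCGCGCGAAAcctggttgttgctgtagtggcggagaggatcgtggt
At least 1 E2F spelling stood in 19 of the 37 members with a window. By window these were 19 of 47, or 40.4%, against 3.31% of all 35116 windows in the table. TTTCCCGC stood in 9 members (CDT1, GINS2, GINS3, LIG1, MCM3, MCM7, PCNA, RFC3 and TYMS) and in 19.1% of the 47 member windows, against 1.63% of all. TTTGGCGC stood in 14.9% against 0.652%, TTTCGCGC in 12.8% against 0.515%, and TTTGCCGC in 0 member windows against 0.607%. CCAAT stood in 57.4% of member windows, against 34.6% of all. The palindromic estrogen response element (GGTCA and its inverted repeat with any 3 bases between them, which reads alike on both strands) was in 0 of the 47 member windows and in 0.057% of all. In the windows printed, CDC45 held 4 CCAAT and none of the E2F spellings searched, PCNA held 3 CCAAT and 1 TTTCCCGC, and GINS2 held 1 of each. CDC45 also held TTTGGCGG, which differs from TTTGGCGC in its last base and was not among the spellings searched. EXO1 held TTTCGCGC, and in MCM2 the same spelling stood on both strands in overlap. The spellings are a description of these letters and not of bound sites.

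E2 replicate 2 and E2L+P4 replicate 2 went against their labels, since each had the levels of the other's group. SERPINA3, a progestin-induced gene, was at 12.42 (log2) on E2 replicate 2 where the remaining E2 arrays had 9.30 to 9.52, and at 9.42 on E2L+P4 replicate 2 where the remaining E2L+P4 arrays had 12.47 to 12.88. Both labels were kept, and some of the results that use these 2 arrays in doubt are also given without them. The columns of the deposited table fall into 6 runs of 6 arrays, called sets here because the files name no chip, and samples of the same set deviated together. All 8 luminal markers looked at (ESR1 and GATA3 among them) were detected on all 36 arrays. Of the 15 markers of other cell types on the array, 9 were detected on 0 arrays, and among the rest COL1A1 and ACTA2 were detected on 36, CD68 on 35 and the endothelial gene VWF on 9.

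Averaged over the 42 members, the log2 level was highest in the groups that held E2 without DHT and lowest with DHT alone. It averaged 11.52 ± 0.0197 with E2 (SD, n = 4), 11.51 ± 0.0283 with E2+P4, 11.47 ± 0.103 with E2+MPA, 11.37 ± 0.0260 with E2+DHT and 11.52 ± 0.0569 with E2L+P4. Without E2 it was 11.33 ± 0.0308 with P4, 11.24 ± 0.0507 with MPA, 11.13 ± 0.0719 with DHT and 11.29 ± 0.0334 with vehicle. The arrays of E2, E2+P4, E2+MPA, E2+DHT and E2L+P4 all lay above the highest vehicle array (11.32), and those of DHT lay between 11.04 and 11.21, all below the lowest vehicle array (11.26). P4 arrays (11.29 to 11.36) and MPA arrays (11.18 to 11.29) overlapped vehicle. Over all 9902 genes the array means ran only from 9.88 to 9.98. With a typical SD of 0.0533 within groups, neighbours such as E2, E2+P4 and E2L+P4, or P4 and vehicle, differed by less than the spread between samples.

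**Figure D1:**
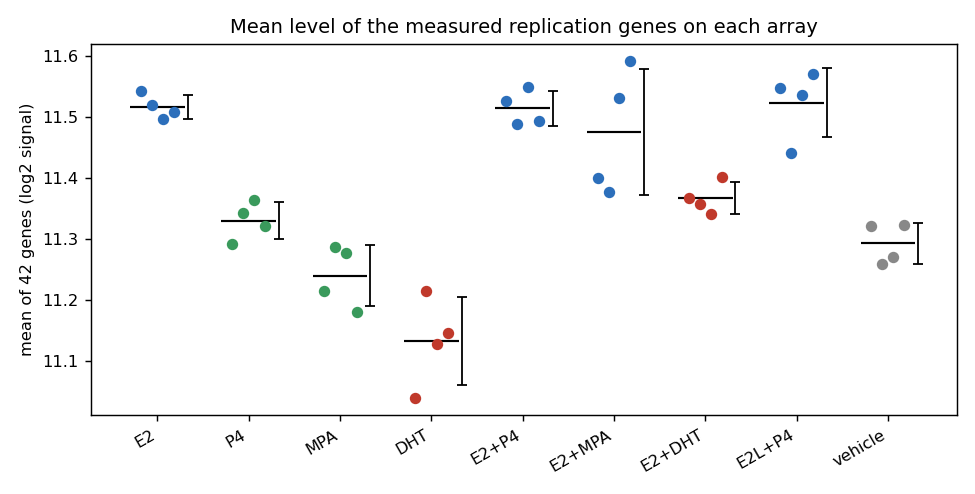
Mean log2 level of the 42 measured members on each array, by group, with the line at the group mean and the bar at ± 1 SD (n = 4 each). The groups with E2 and without DHT (blue) lie at 11.38 to 11.59, the DHT alone group lies lowest at 11.04 to 11.21, and vehicle (grey) lies at 11.26 to 11.32.

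With E2 alone, most members stood a little higher than with vehicle. The median change of the 42 was 0.24 on the log2 scale, against -0.01 over all genes, and 35 of the 42 lay above 0. In limma 0 members passed an adjusted p of 0.05 (1.37% of all genes did), while 10 members were higher and 0 lower at an unadjusted p under 0.05, the level that 5.27% of all genes reached in the higher direction. The groups did not overlap for 7 members, all higher (CDC45, GINS2, GINS4, MCM7, PRIM1, RFC4 and RFC5), against 1.73% of all genes in that direction. With array weights 11 members were called, all higher, where 6.14% of all genes were called under that setting, and with each other setting 0 to 3 were called. The median ran from 0.14 to 0.29 over the 48 planned settings, and was 0.18 without the 2 arrays in doubt. The lowest value, 0.14, was that of the fit with the sets of 6 as a factor. Within 1 set of 6, 38 of the 42 members were higher with E2, with a median of 0.19. That set held 1 vehicle array and E2 replicates 1 and 2, of which replicate 2 is in doubt. Of the 42, 13 have other detected probes, which form 15 pairs with the probe used, and the other probe had the same sign in 10 of 15 pairs with E2, 7 with MPA, 7 with DHT, 8 with E2+P4 and 9 with E2L+P4 against vehicle, and in 9 in E2+DHT against E2.

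DHT alone went the other way. Its median change was -0.20 against vehicle (-0.03 over all genes), 33 of the 42 members lay below 0, and 1 member, EXO1, fell, where 1.3% of all genes fell. At an unadjusted p under 0.05, 8 members were lower and 1 higher, against 8.89% and 5.08% of all genes. The other probes of members with several had the opposite sign in 8 of 15 pairs. The groups did not overlap for 4 members, all lower (EXO1, POLA1, RPA2 and RRM1), against 3.53% of all genes. Within the set of 6 that held 1 DHT and 1 vehicle array, 7 of the 42 members lay above 0, with a median of -0.16. The median stayed below 0 in all 48 settings, from -0.25 to -0.12, and the vehicle array replicate 1 moved it most, to -0.12 without that array. VWF, detected on all 4 DHT arrays and 0 vehicle arrays, was at least 2.28-fold higher with DHT (adjusted p = 6.95e-05 in limma; the bound sets the DHT mean against the lowest signal detected), while the endothelial markers CDH5 and KDR were detected on 0 arrays and PECAM1 on 1. Whether VWF has a part in the change of the members was not tested.

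With P4 alone the members had the median of all genes, and with MPA alone a lower one. The median was -0.12 with P4 against vehicle, the same as over all genes (-0.12). It was -0.20 with MPA, against -0.12 over all genes. With P4 14 of the 42 members lay above 0 and with MPA 16, where 35.8% and 37.4% of all genes did. The MPA median, of the same size as that of DHT, stayed below 0 in the 48 planned settings (-0.26 to -0.002). In limma 0 members passed with P4, where 0% of all genes did, and 7 members were higher and 2 lower at an unadjusted p under 0.05, against 11.4% and 14.9% of all genes. With MPA 0 passed (1.96% of all genes did), and 5 were higher and 12 lower at that level, against 11.4% and 16.9%. Groups did not overlap for 5 members higher and 1 lower with P4, against 6.34% and 9.55% of all genes, and for 0 higher and 3 lower with MPA, against 4.34% and 6.66%. P4 and vehicle share no set of 6, so that no value within a set can be given for them. MPA and vehicle share 1 set, in which the median was -0.06 and 18 members lay above 0. Without vehicle replicate 2, P4 had 4 calls, where 12.3% of all genes were called, and MPA 10 (4 higher and 6 lower), where 18.2% were.

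The cotreatments with P4 resembled E2 in size. With E2+P4 the median was 0.19 against vehicle (-0.03 over all genes), 34 of 42 members lay above 0 and 2 rose, CDC45 and GINS2, where 1.14% of all genes rose. E2L+P4 had a median of 0.17 (-0.06 over all genes), 33 members above 0 and 3 that rose, CDC45, GINS2 and GINS4, where 2.35% of all genes rose. At an unadjusted p under 0.05, 10 members were higher with E2+P4 and 12 with E2L+P4, against 6.8% and 9.58% of all genes, and 0 were lower with either, against 8.4% and 15.3%. E2+MPA had a median of 0.16 with 34 above 0 and 0 that passed (3.87% of all genes did; 4 members were higher and 0 lower at the unadjusted level, against 7.19% and 11.1% of all genes). Within the 3 sets of 6 that held E2+MPA and vehicle arrays, its median was -0.02 (20 of 42 members above 0), 0.22 (30 above 0) and 0.09 (26 above 0). For E2+P4 the median was 0.15 and 0.25 within the 2 sets shared with vehicle, and for E2L+P4 0.21 within the 1 shared set. E2+P4 did not overlap vehicle for 7 members (CDC45, GINS2, GINS4, LIG1, MCM7, RFC4 and RFC5) and E2L+P4 for 4 (CDC45, GINS2, GINS4 and RFC4), all higher, against 2.95% and 2.79% of all genes. Without vehicle replicate 1 the calls numbered 0 with E2+P4 and 2 with E2L+P4, where 1.2% and 2.85% of all genes were called. Without vehicle replicate 2 they numbered 5 and 7, where 3.35% and 14.5% were. These comparisons share their vehicle arrays and are not independent of each other. Adding P4 or MPA to E2 left the members near their E2 level, with medians of -0.02 for E2+P4 against E2 and -0.08 for E2+MPA against E2. In both 0 members passed in limma, where 0% and 0.889% of all genes did, and at the unadjusted level 0 were higher and 1 and 2 were lower, where 0.475% and 8.42% of all genes were lower. Between E2L+P4 and E2+P4 the median was -0.01, 0 members passed (0.0101% of all genes did) and 0 were past the unadjusted level in either direction, where 1.47% of all genes were higher and 2.0% lower.

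Adding DHT to E2 gave lower levels than E2 alone. The median was -0.18 for E2+DHT against E2 (-0.05 over all genes), 35 of the 42 members lay below 0, and 0 passed in limma, where 0.818% of all genes did. At an unadjusted p under 0.05, 8 members were lower (CHAF1A, EXO1, FEN1, GINS3, MCM2, ORC1, POLA1 and TK1) and 0 higher, against 4.56% and 2.53% of all genes, which became 3 lower without the 2 arrays in doubt. The groups did not overlap for 6 members, all lower (CDC45, EXO1, MCM3, ORC1, POLA1 and PRIM1), against 1.64% of all genes. The median without both arrays in doubt was -0.18. Within the set that held 1 E2+DHT array and 2 E2 arrays it was -0.16, with 9 of 42 members above 0. This value within a set includes E2 replicate 2, an array in doubt. VWF was at least 2.27-fold higher in E2+DHT than in E2 too (adjusted p = 0.00118 in limma, detected on 4 arrays and 0 arrays), and its part in the change of the members was not tested. In the deposited value table, which shifts the median of all genes by 0.124 here, the members' median was -0.05 and that of all genes 0.07. Against vehicle the E2+DHT members were close to 0, with a median of -0.02 (-0.07 over all genes), 5 higher and 2 lower at the unadjusted level (9.79% and 12.1% of all genes) and 0 that passed, where 4.81% of all genes did.

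**Figure D2:**
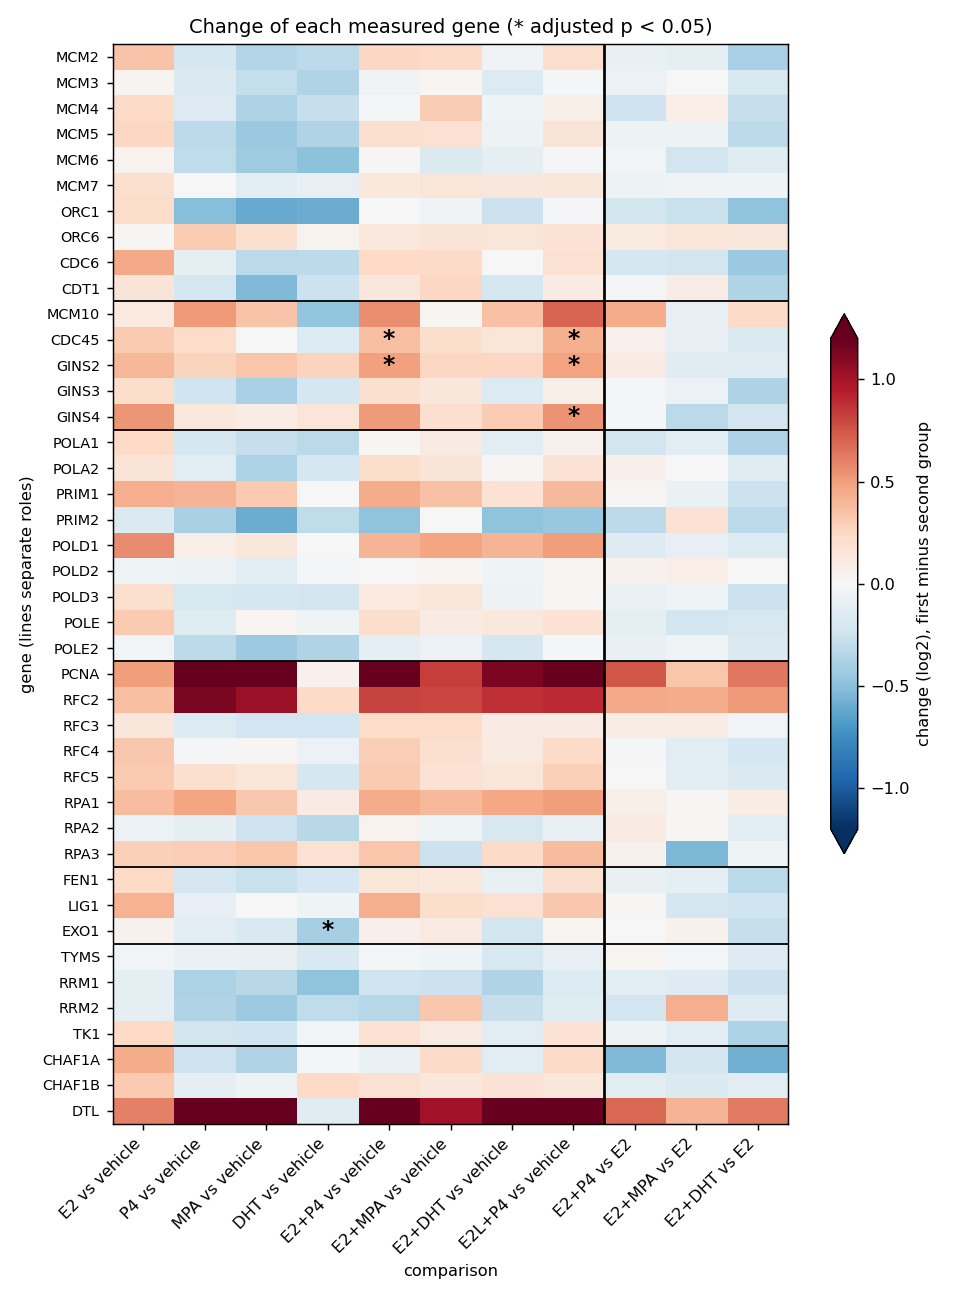
Log2 change of each of the 42 measured members (down the page, grouped by role) in 11 comparisons (across), from the limma fit, with colours capped at 1.2 to each side and a star at an adjusted p under 0.05. The columns of E2 and of its cotreatments with P4 are mostly above 0, those of DHT against vehicle and of E2+DHT against E2 mostly below 0, and stars are few, on CDC45, GINS2, GINS4 and EXO1.

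The members also stood higher where E2 was added to each of the other hormones. The median was 0.20 for E2+P4 against P4 (36 of 42 members above 0), 0.27 for E2+MPA against MPA (35 above 0), 0.18 for E2+DHT against DHT (35 above 0) and 0.22 for E2L+P4 against P4 (35 above 0). The medians over all genes were 0.05, 0.05, -0.02 and 0.01 in the same comparisons. In each of them 0 members passed in limma, where 1.28%, 1.15%, 1.15% and 2.3% of all genes did, and 12, 20, 6 and 10 members were higher at the unadjusted level, where 5.76%, 11.9%, 4.67% and 6.1% of all genes were, against 0, 1, 0 and 0 lower, where 1.61%, 6.98%, 5.54% and 2.85% were. Within sets of 6 the median was 0.14 for E2+MPA against MPA and 0.21 for E2+DHT against DHT (1 set each). It was 0.10 and 0.26 for E2L+P4 against P4 (2 sets), whereas E2+P4 and P4 share no set. The value of 0.10 rests on E2L+P4 replicate 2, an array in doubt. The groups did not overlap for 16 members with E2+P4 against P4, for 9 with E2+MPA against MPA, for 4 with E2+DHT against DHT and for 14 with E2L+P4 against P4, all higher, against 9.88%, 4.93%, 2.89% and 4.8% of all genes. The test of the difference between the E2 effect with and without the second hormone (an interaction term) called 0 members for P4, MPA or DHT, where 0.0101%, 0% and 0% of all genes passed, and 1, 4 and 1 members were past the unadjusted level in either direction, where 2.69%, 9.24% and 2.37% of all genes were higher and 0.97%, 5.39% and 2.3% lower. The median interaction was 0.06 for P4, 0.12 for MPA and -0.00 for DHT, and each of these medians changed sign under some setting.

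**Figure D3:**
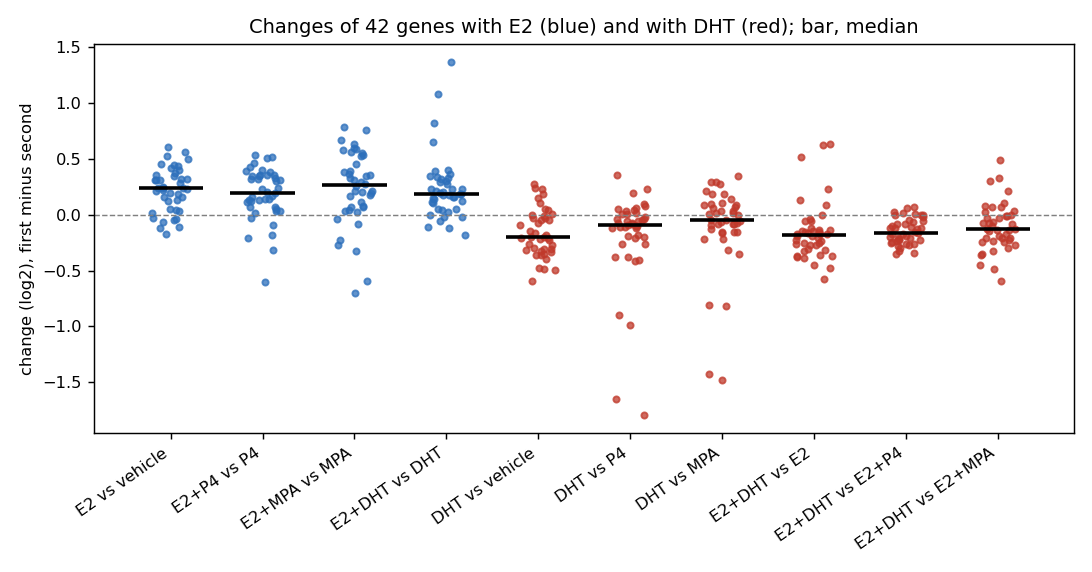
Log2 changes of the 42 members where E2 was added (blue: E2 against vehicle, E2+P4 against P4, E2+MPA against MPA, E2+DHT against DHT) and where DHT was compared with another treatment (red: DHT against vehicle, P4 and MPA, and E2+DHT against E2, E2+P4 and E2+MPA). Points are genes and bars are medians, which lie between 0.18 and 0.27 in the blue columns and between -0.20 and -0.05 in the red ones.

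The licensing genes followed the same order. All 10 lay above 0 with E2 against vehicle (median 0.21, from 0.01 for ORC6 to 0.45 for CDC6), 9 of 10 lay below 0 with DHT against vehicle (median -0.31), and 9 of 10 lay below 0 with E2+DHT against E2 (median -0.29). When the fit held the sets of 6 as a factor, the change with E2 was lower for all of them but MCM6. It was 0.39 for CDC6, 0.08 for MCM5, 0.04 for MCM4, 0.001 for CDT1, -0.01 for MCM3 and -0.03 for ORC6. In E2+DHT against E2 that fit brought the 9 lower members nearer to 0, as from -0.31 to -0.09 for MCM5, and they stayed below it. In limma 0 of the 10 passed in any of the 25 comparisons, with at most 8 past an unadjusted p under 0.05 (in E2+MPA against MPA). MCM2, which encodes a subunit of the MCM ring and is a common marker of cells licensed to replicate, had 12.19, 12.04, 11.89 and 11.46 (log2 level) with E2, 11.18, 11.36, 10.94 and 11.46 with DHT, and 11.51, 11.34, 11.49 and 11.86 with vehicle. The first 3 E2 arrays were above all vehicle arrays and the fourth was below the highest of them, and DHT overlapped vehicle. Its change was 0.34 ± 0.17 with E2 (SE, adjusted p = 0.472) and -0.31 ± 0.17 with DHT (adjusted p = 0.413) in limma. With the sets of 6 as a factor in the fit, MCM2 fell with DHT by 0.49 ± 0.11 (adjusted p = 0.0176), and 2 of 50 other settings called it (0.0176 to 0.812). The same limma fit gave 0.12 ± 0.11 for MCM2 with E2 (adjusted p = 0.556). For E2+DHT against E2 it gave -0.17 ± 0.11 (adjusted p = 0.999), where the fit without sets gave -0.39.

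MCM6, another ring subunit, stood at 12.56, 12.96, 12.60 and 12.78 with DHT, against 13.76, 13.03, 12.89 and 13.19 with vehicle. The groups overlapped only through the DHT array at 12.96 and the vehicle array at 12.89, and vehicle replicate 1 stood far above the rest. The change was -0.49 ± 0.15 (adjusted p = 0.0813). MCM7 was the ring member whose E2 and vehicle arrays did not overlap. It stood at 13.58, 13.63, 13.61 and 13.69 with E2, against 13.48, 13.41, 13.40 and 13.48 with vehicle, a change of 0.19 ± 0.12 (adjusted p = 0.624, with an error that all 9 groups share). ORC1, the largest subunit of the origin recognition complex, stood at 8.50, 8.51, 8.51 and 8.66 with E2+DHT, against 9.10, 9.25, 8.94 and 8.80 with E2. These groups did not overlap, and the change was -0.48 ± 0.23 (adjusted p = 0.702). With DHT alone ORC1 was -0.59 ± 0.23 against vehicle (adjusted p = 0.215).

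CDC6 and CDT1, the loading factors of the ring, varied more among samples. CDC6 had 7.94, 8.22, 7.59 and 7.26 with E2, against 7.85, 6.49, 7.24 and 7.62 with vehicle, and it was detected on 1 of 4 DHT arrays, 2 of 4 MPA arrays and 3 of 4 vehicle arrays. Its levels with DHT (6.83 to 7.07) lay inside the range of the vehicle arrays, and the change of 0.45 ± 0.24 with E2 did not pass (adjusted p = 0.531). Without the 2 arrays in doubt the change with E2 was 0.30 ± 0.26. CDT1 had 11.39, 11.53, 12.21 and 11.99 with E2+MPA, against 10.76, 11.22, 11.17 and 10.84 with MPA. All E2+MPA arrays were above all MPA arrays, and the change was 0.78 ± 0.23 (adjusted p = 0.101). Of the licensing genes, 8 of 10 were higher in that comparison at an unadjusted p under 0.05 (11.9% of all genes were), with a median of 0.56, among them MCM4, a ring subunit chosen here after its values were seen (0.67 ± 0.18, adjusted p = 0.0705). E2+MPA replicate 3 stood highest of its group for MCM2, MCM3, MCM4, MCM5, ORC1, CDC6 and CDT1. Replicates 3 and 4 of E2+MPA lie in the sets numbered 3 and 4, where the MPA group had no array. With the sets as a factor the changes were lower for all licensing genes but MCM7 and ORC6. They were 0.48 for CDT1 (adjusted p = 0.452 in limma), 0.50 for MCM4, 0.32 for MCM2, 0.26 for MCM5, 0.23 for ORC1 and 0.08 for MCM6.

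Helicase activation held 6 of the 7 calls made over all members and comparisons. CDC45, which joins the MCM ring and GINS to form the working helicase, rose with E2+P4 and with E2L+P4 against vehicle and was lower with DHT than with P4. It stood at 12.74, 12.96, 12.90 and 12.87 with E2+P4 and at 12.89, 12.86, 12.88 and 13.10 with E2L+P4, against 12.35, 12.63, 12.40 and 12.64 with vehicle. Neither treated group overlapped vehicle. The changes were 0.36 ± 0.098 (1.28-fold, adjusted p = 0.0467) and 0.43 ± 0.098 (1.35-fold, adjusted p = 0.00589) in limma. The single hormones gave 12.84, 12.78, 12.86 and 12.79 with E2, 12.72, 12.74, 12.73 and 12.71 with P4, 12.51, 12.49, 12.62 and 12.41 with MPA, and 12.35, 12.31, 12.33 and 12.39 with DHT. E2 and P4 lay above every vehicle array, DHT overlapped the lower vehicle arrays, and all DHT arrays were below all P4 arrays. DHT against P4 was -0.38 ± 0.098 (0.768-fold, adjusted p = 0.0413), where 0.252% of all genes were called lower. CDC45 had the smallest SD within groups of any member, 0.113, against a median of 0.231 over the members.

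The 3 calls of CDC45 differed in how they held. In these tallies, here and for the members below, 36 of the 50 settings left out 1 array. Where that array came from neither group compared, the change itself stayed the same, so that such settings say little of how a call holds. E2L+P4 against vehicle was called in 48 of 50 other settings (adjusted p from 2.82e-05 to 0.246), with every single array left out (0.00268 to 0.0369) and without the 2 arrays in doubt (0.45, adjusted p = 0.00899). E2+P4 against vehicle was called in 17 of 50 (0.000316 to 0.361) and was lost without E2+P4 replicate 2, 3 or 4 (adjusted p = 0.194, 0.132 and 0.101) and without vehicle replicate 1 or 3 (0.252 and 0.141). DHT against P4 was called in 34 of 50 (0.000298 to 0.292) and was lost without any 1 of the 4 P4 arrays or without DHT replicate 1, 2 or 4 (0.0816 to 0.13).

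GINS2 and GINS4 are subunits of the GINS complex, and GINS2 rose in the same 2 comparisons with vehicle as CDC45. GINS2 stood at 13.48, 13.44, 13.35 and 13.28 with E2+P4 and at 13.41, 13.27, 13.35 and 13.48 with E2L+P4, against 12.46, 12.92, 13.15 and 13.05 with vehicle. The treated arrays were all above vehicle, and vehicle replicate 1 was the lowest array of the 36. The changes were 0.49 ± 0.12 (1.41-fold, adjusted p = 0.0293) and 0.48 ± 0.12 (adjusted p = 0.0166). Without vehicle replicate 1 they were 0.35 (adjusted p = 0.254) and 0.34 (adjusted p = 0.141), so that both calls rest on that array. Leaving out E2+P4 replicate 1, 2 or 3 also ended the E2+P4 call (0.0952, 0.104 and 0.0638), and leaving out E2L+P4 replicate 1 the other (0.0514). Over all settings 42 of 50 kept each call, with an adjusted p of 0.0119 to 0.341 for E2+P4 and 0.00736 to 0.293 for E2L+P4. Many of these settings left out an array of neither group and could not alter the change.

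GINS4 had 10.10, 10.25, 10.02 and 10.06 with E2L+P4, 10.17, 10.03, 9.97 and 10.15 with E2+P4 and 10.22, 10.18, 10.08 and 9.90 with E2, against 9.73, 9.78, 9.13 and 9.65 with vehicle. None of the 3 groups overlapped vehicle, whose replicate 3 was the lowest array of the 36. GINS4 rose with E2L+P4 (0.54 ± 0.14, 1.45-fold, adjusted p = 0.0206), and the changes with E2 (0.53, adjusted p = 0.0632) and E2+P4 (0.51, adjusted p = 0.0610) were of the same size and did not pass. The call was lost without E2L+P4 replicate 1 or 2 (adjusted p = 0.0514 and 0.0628), without both arrays in doubt (0.49, adjusted p = 0.0668) and without vehicle replicate 3 (0.39, adjusted p = 0.0903), and it held in 43 of 50 settings (5.36e-06 to 0.244). None of these calls held when only the 2 groups compared entered the fit.

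GINS3, the remaining measured GINS subunit, and MCM10, which helps to switch the loaded helicase on, were looked at after their values were seen. GINS3 differed from vehicle by -0.39 with MPA to 0.21 with E2, without a call, and had vehicle replicate 1 the highest vehicle array at 10.65. MCM10 stood at 11.15, 11.35, 11.23 and 10.83 with E2L+P4, against 10.30, 10.50 and 9.95 on vehicle replicates 1, 3 and 4. Vehicle replicate 2 lay above E2L+P4 replicate 4 and below the rest of that group, and the change was 0.70 ± 0.28 (adjusted p = 0.123). With the sets of 6 as a factor it was 0.75 ± 0.16 (adjusted p = 0.00558), 1 of 4 settings of 50 that called it (0.00228 to 0.515).

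**Figure D4:**
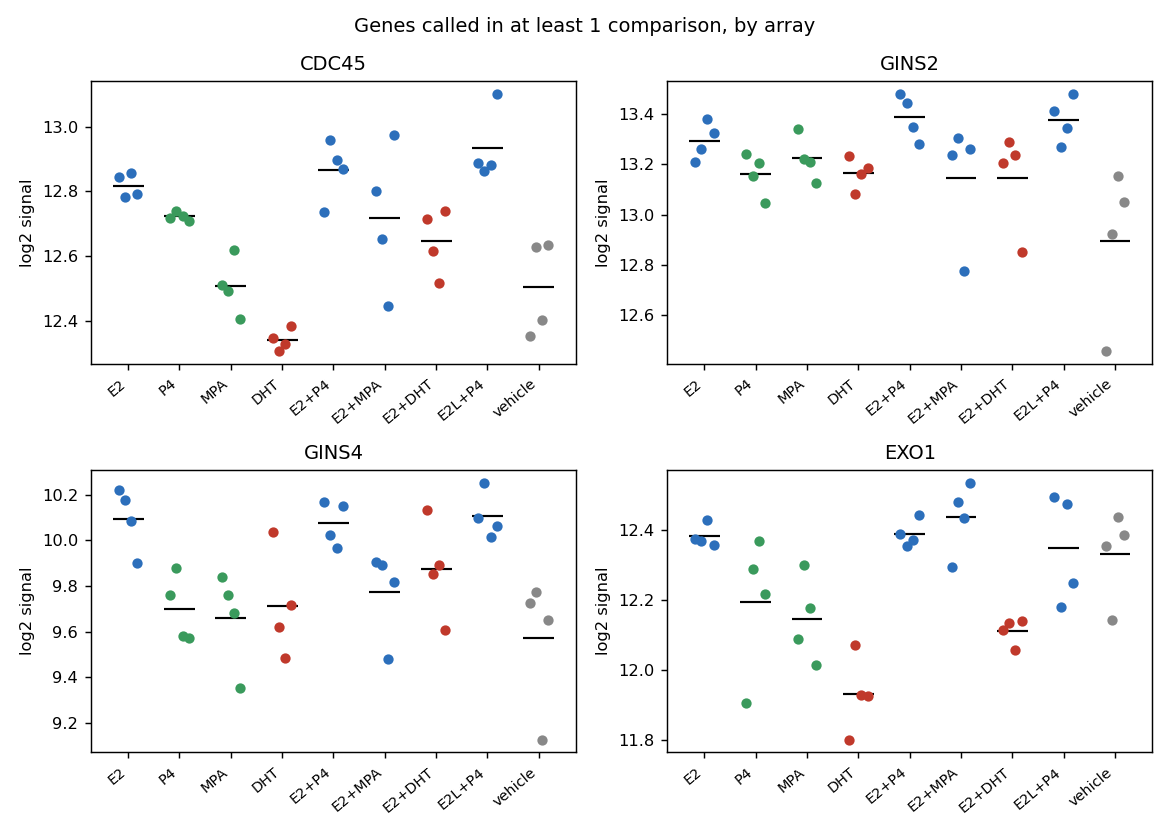
Log2 level of CDC45, GINS2, GINS4 and EXO1 on each array by group, with the line at the group mean (n = 4 each) and vehicle at the right. CDC45 with E2L+P4 lies at 12.86 to 13.10 and with DHT at 12.31 to 12.39, and EXO1 with DHT lies at 11.80 to 12.07, against 12.14 to 12.44 with vehicle.

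Among the 9 genes of the polymerases and primase, 6 lay above 0 with E2 against vehicle (median 0.20) and 8 lay below 0 with DHT (median -0.20). In limma 0 of them passed in any comparison, with at most 4 past an unadjusted p under 0.05. Over all genes the share past that level varied by comparison, from 0.454% to 11.9% higher and from 0.475% to 16.9% lower. POLD1, the catalytic subunit of polymerase delta, had 9.31, 9.71, 9.62 and 9.14 with E2, against 8.52, 8.83, 8.77 and 9.42 with vehicle. All E2 arrays exceeded vehicle replicates 1, 2 and 3, and vehicle replicate 4 lay inside the E2 range. The change was 0.56 ± 0.19 (adjusted p = 0.193), the second largest of a member with E2 after DTL (0.60 ± 0.50, adjusted p = 0.733).

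PRIM1, the catalytic subunit of the primase that starts each strand, was singled out after its values were seen. It stood at 11.48, 11.34, 11.24 and 11.47 with E2, 11.56, 11.36, 11.26 and 11.28 with P4 and 10.97, 10.91, 10.84 and 11.07 with DHT, against 10.73, 11.23, 10.77 and 11.07 with vehicle. E2 and P4 lay above all vehicle arrays, and all DHT arrays lay below all P4 arrays. The changes were 0.43 with E2 (adjusted p = 0.132), 0.41 with P4 (adjusted p = 0.122) and -0.42 for DHT against P4 (adjusted p = 0.139). PRIM2, the other primase subunit, differed from vehicle by -0.60 with MPA, where replicate 4 (7.87) was its lowest array, to -0.00 with E2+MPA, with 0 calls. POLE2, a subunit of polymerase epsilon, stood at 10.42, 10.75, 10.03 and 10.40 with DHT, against 11.28, 10.64, 10.56 and 10.55 with vehicle, and the change was -0.36 ± 0.17 (adjusted p = 0.339). The vehicle array at 11.28 was replicate 1.

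PCNA, DTL and RFC2 showed the widest scatter of all members, and it followed the sets of 6. PCNA, the sliding clamp and a common marker of S phase, had an SD within groups of 0.964, DTL had 0.748 and RFC2, a subunit of the clamp loader, had 0.627, against a median of 0.231 over the members and 0.280 over all genes. These 3 members exceeded 0.5, as did 10.9% of all genes. On the arrays of the sets numbered 3 and 4 PCNA lay between 9.64 and 10.86. On the other arrays it lay between 11.29 and 12.66, except vehicle replicate 1 at 8.54. The P4 and MPA groups had no array in these 2 sets, DHT and E2 had 3 of 4 each, and vehicle had 1.

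PCNA stood at 12.52, 12.17, 12.11 and 12.33 with P4 and at 11.82, 11.66, 12.12 and 12.27 with MPA, against 8.54, 11.78, 11.29 and 10.14 with vehicle. The P4 arrays were all above the vehicle arrays and the MPA arrays were not. The change was 1.85 ± 0.64 with P4 (adjusted p = 0.129) and 1.53 ± 0.64 with MPA (adjusted p = 0.136), neither past the test. A pair of other PCNA probes, detected on 17 and 33 arrays, gave -0.50 and -0.77 with MPA and -0.19 and -0.54 with E2L+P4, where the probe used gave 1.41. RFC2 stood at 10.11, 9.82, 10.01 and 9.88 with P4, against 7.91, 9.81, 9.29 and 8.30 with vehicle. Its change was 1.13 ± 0.42 (adjusted p = 0.134), and its other probe gave -0.42 with MPA, where the probe used gave 1.04. With the sets as a factor, RFC2 was called in E2+MPA against vehicle (1.00 ± 0.26, adjusted p = 0.0209), where 6.42% of all genes were called.

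**Figure D5:**
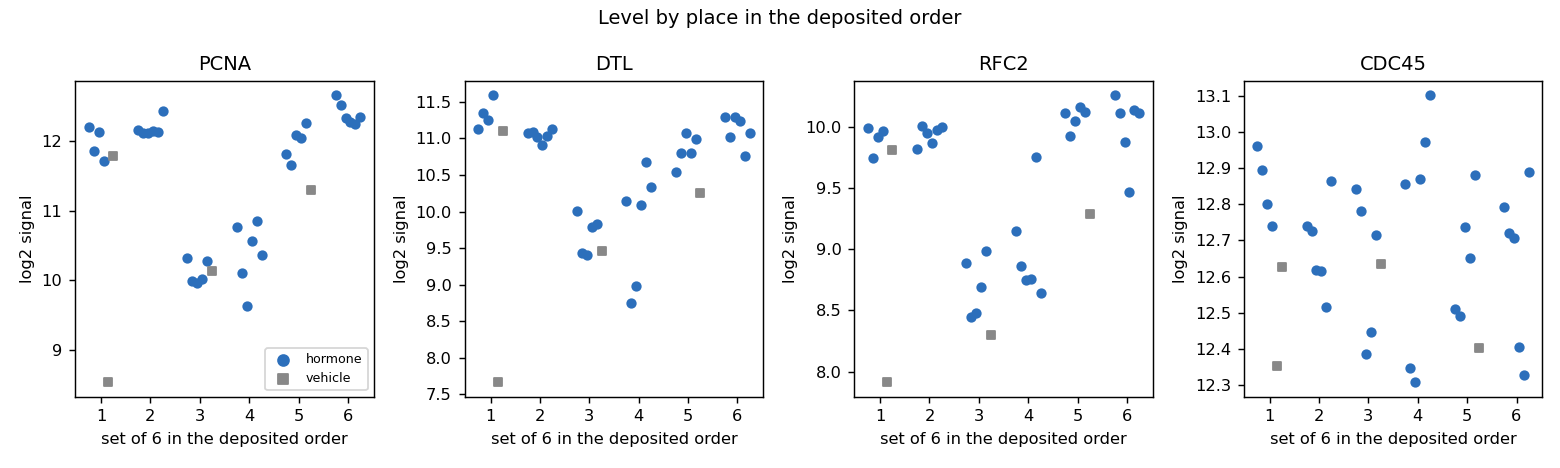
Log2 level of PCNA, DTL, RFC2 and CDC45 on the 36 arrays by deposited set of 6, with squares for the vehicle arrays. PCNA lies at 9.64 to 10.86 in sets 3 and 4, whatever the hormone, and at 11.29 to 12.66 elsewhere apart from vehicle replicate 1 at 8.54, whereas CDC45 lies between 12.31 and 13.10 over all arrays.

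The other clamp loader subunits had small spreads. RFC4 stood at 12.08, 12.09, 12.05 and 11.89 with E2, against 11.51, 11.72, 11.75 and 11.85 with vehicle, and RFC5 at 11.75, 11.69, 11.59 and 11.85 with E2, against 11.12, 11.52, 11.45 and 11.54 with vehicle, both chosen after their values were seen. The E2 arrays lay above the vehicle arrays for both, and the changes of 0.32 (adjusted p = 0.304) and 0.31 (adjusted p = 0.349) did not pass. RPA1, RPA2 and RPA3 form the protein that covers single-stranded DNA, and they are given after their values were seen. RPA2 was 12.39, 12.21, 12.39 and 12.41 with DHT, against 13.12, 12.50, 12.46 and 12.64 with vehicle, without overlap, and its change was -0.33 (adjusted p = 0.0935). The other subunits averaged higher with DHT than with vehicle, RPA1 by 0.10 (adjusted p = 0.864) and RPA3 by 0.18 (adjusted p = 0.769), and neither passed.

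EXO1, a nuclease of mismatch repair and DNA end resection, was the member that fell with DHT against vehicle. It stood at 11.80, 12.07, 11.93 and 11.92 with DHT, against 12.36, 12.14, 12.44 and 12.39 with vehicle, a change of -0.40 ± 0.10 (0.758-fold, adjusted p = 0.0239). All DHT arrays lay below all vehicle arrays. The E2 groups showed the same order, with 12.11, 12.13, 12.06 and 12.14 for E2+DHT, against 12.37, 12.37, 12.43 and 12.36 for E2, and did not overlap, with a change of -0.27 ± 0.10 (adjusted p = 0.413). A second EXO1 probe, detected on all 36 arrays, gave 0.01 for DHT against vehicle and -0.42 for E2+DHT against E2, and the mean of both probes was not called. The call held in 37 of 50 settings (0.00201 to 0.675) and was lost without DHT replicate 1 (-0.36, adjusted p = 0.104), 3 (0.0598) or 4 (0.0534), without vehicle replicate 1 (0.0726), 3 (0.0862) or 4 (0.0530) and with the sets of 6 as a factor (0.0715).

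LIG1 seals Okazaki fragments and FEN1 trims their flaps, and both lay higher where E2 was present, without a call. LIG1, chosen like FEN1 after its values were seen, stood at 10.15, 10.14, 10.19 and 10.35 with E2+P4, against 9.71, 9.80, 9.60 and 9.58 with P4. The groups did not overlap, and the change was 0.54 ± 0.15 (adjusted p = 0.0964), which 4 of 50 other settings called (0.00107 to 0.401). With E2 alone LIG1 was 10.24, 10.26, 10.27 and 10.00, against 9.75, 9.62, 9.62 and 10.08 with vehicle, where vehicle replicate 4 lay inside the E2 range (0.42 ± 0.15, adjusted p = 0.258). FEN1 was 0.24 ± 0.14 with E2 against vehicle and -0.32 ± 0.14 for E2+DHT against E2 (adjusted p = 0.625).

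Of the 4 nucleotide supply genes, 1 lay above 0 with E2 against vehicle. Their median was -0.07 with E2 and -0.24 with DHT, with 4 of 4 below 0. RRM1, the large subunit of ribonucleotide reductase, stood at 13.06, 13.23, 13.23 and 13.23 with DHT and at 13.27, 13.31, 13.27 and 13.34 with P4, against 14.02, 13.59, 13.65 and 13.43 with vehicle. Both groups lay below all vehicle arrays and DHT below all P4 arrays, and the changes were -0.49 ± 0.15 with DHT (adjusted p = 0.0803) and -0.38 ± 0.15 with P4 (adjusted p = 0.139). RRM2, the small subunit, had 12.38, 12.54, 13.73 and 13.39 with E2+MPA, against 12.29, 12.51, 12.25 and 11.95 with MPA. The groups overlapped in the lower E2+MPA arrays and the change was 0.76 ± 0.24 (adjusted p = 0.135).

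TK1, the salvage kinase of thymidine, was the supply gene above 0 with E2. It stood at 12.75, 12.58, 12.61 and 12.47 with E2+DHT, against 13.03, 13.24, 13.02 and 12.64 with E2. The highest E2+DHT array exceeded only the lowest E2 array, and the change was -0.38 ± 0.14 (adjusted p = 0.435). TYMS, which makes thymidylate, stood at 13.32, 13.19, 13.37 and 13.67 with E2, against 13.73, 13.30, 13.48 and 13.19 with vehicle, in overlap, a difference of -0.03 ± 0.11 (adjusted p = 0.959) with a 95% interval of -0.26 to 0.19.

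CHAF1A and CHAF1B, the chromatin assembly factor subunits that place histones on new DNA, and DTL, which directs CDT1 to destruction, were each above 0 with E2 (median 0.45). They passed in no comparison in limma, with at most 2 past an unadjusted p under 0.05. The share of all genes past that level varied by comparison, as given for the polymerases. CHAF1A, named after its values were seen, was 8.60, 7.97, 7.81 and 7.67 with E2+DHT, against 8.88, 8.51, 8.59 and 8.38 with E2. The groups overlapped through E2+DHT replicate 1 (-0.58 ± 0.22, adjusted p = 0.464). CHAF1B stood at 10.27, 10.72, 10.06 and 10.44 with DHT, against 10.56, 9.62, 10.01 and 10.35 with vehicle, and was the largest positive change of a member with DHT, 0.24 ± 0.16 (adjusted p = 0.554). DTL stood at 8.75, 8.98, 10.76 and 9.40 with DHT and at 11.02, 11.07, 11.08 and 11.30 with P4, against 7.66, 11.10, 10.25 and 9.46 with vehicle. All DHT arrays lay below all P4 arrays, and its change of -1.64 ± 0.50 for DHT against P4 (adjusted p = 0.110) did not pass. The DHT array at 10.76 is the one outside sets 3 and 4.

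P4, MPA and DHT were compared with each other at the same dose and time, alone and with E2, in 6 pairs. MPA carries an acetate and a methyl group that progesterone does not have, and the side chain of P4 and MPA is missing from DHT. Over the members the median was -0.10 for MPA against P4, -0.09 for DHT against P4 and -0.05 for DHT against MPA, with medians over all genes of -0.01, 0.05 and 0.06. With E2 it was -0.03 for E2+MPA against E2+P4, -0.16 for E2+DHT against E2+P4 and -0.13 for E2+DHT against E2+MPA, with -0.01, -0.02 and -0.02 over all genes. CDC45 in DHT against P4 was 1 call, lower, and the other 5 pairs had 0, where 0.374% of all genes were called in MPA against P4, 0.303% in DHT against MPA, 0.465% in E2+MPA against E2+P4, 0.747% in E2+DHT against E2+P4 and 0.293% in E2+DHT against E2+MPA. At an unadjusted p under 0.05, the members higher and lower were 0 and 1 for MPA against P4, 1 and 9 for DHT against P4, 0 and 6 for DHT against MPA, 1 and 2 for E2+MPA against E2+P4, 0 and 4 for E2+DHT against E2+P4 and 1 and 2 for E2+DHT against E2+MPA. Over all genes the shares higher and lower at that level were 2.04% and 0.788% for MPA against P4, 8.83% and 6.98% for DHT against P4, 6.37% and 5.29% for DHT against MPA, 5.72% and 7.95% for E2+MPA against E2+P4, 2.51% and 2.74% for E2+DHT against E2+P4 and 3.82% and 3.61% for E2+DHT against E2+MPA. For 8 members DHT and P4 did not overlap, all lower with DHT (CDC45, CDC6, DTL, MCM10, PRIM1, RFC5, RPA2 and RRM1), against 2.87% of all genes. P4 had no array in the sets numbered 3 and 4, and DHT only replicate 3 outside them. With the sets as a factor all 8 stayed lower. MCM10 went from -0.98 to -0.36 (adjusted p = 0.827 in limma) and DTL from -1.64 to -0.83, and PRIM1, RFC5 and RPA2 shrank too. CDC45 went from -0.38 to -0.47 (adjusted p = 0.0288), and CDC6 and RRM1 also grew.

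For CDC45 the 95% interval of the difference was -0.58 to -0.18 for DHT against P4, -0.42 to -0.02 for MPA against P4 (adjusted p = 1.00 in limma) and -0.36 to 0.04 for DHT against MPA (adjusted p = 0.463). With E2 it was -0.42 to -0.02 for E2+DHT against E2+P4 (adjusted p = 0.841), -0.35 to 0.05 for E2+MPA against E2+P4 and -0.27 to 0.13 for E2+DHT against E2+MPA. EXO1 differed by -0.47 to -0.06 between DHT and P4 (adjusted p = 0.230), by -0.26 to 0.16 between MPA and P4, and by -0.53 to -0.12 between E2+DHT and E2+MPA (adjusted p = 0.330). For GINS2 a difference was not detectable, with intervals of -0.25 to 0.26 for DHT against P4 and -0.19 to 0.32 for MPA against P4. DHT against P4 shares 1 set of 6, with 1 DHT array and 2 P4 arrays, in which the median of the members was -0.18 and CDC45 differed by -0.39.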

How the data were processed

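Gene expression was measured by the authors on 36 Illumina BeadChip arrays of ZR-75-1 cells. The authors deposited a table of non-normalised signal intensity per probe, exported by BeadStudio on a linear scale, with a detection column per array. The column the authors deposited rises with the signal, and so its complement was taken as BeadStudio's detection p-value. The authors also deposited processed intensity values, in which each array's signal is rescaled along a straight line (slopes from 0.324 to 1.573, column medians from 5.4 to 30.9), with scale and constant unstated. Before testing, the authors normalised with vsn and removed batches with ComBat, steps the files used here do not hold. Signals were background-corrected, quantile normalised and taken to log2 (neqc, offset 16, limma 3.58.1, R 4.3.3, data.table version 1.17.8). The platform annotation gave 27578 of the 48803 probes a single symbol, 13 several and 21212 none. A probe was kept where 4 or more arrays had a detection p below 0.01 (15112, of which 12821 with 1 symbol), and 1 probe per gene, the one with the highest mean, gave 9902 genes.

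Each gene was fitted in limma with 9 group means over all arrays, which gave 25 comparisons. A gene was called (rose or fell) where its p, adjusted by Benjamini-Hochberg across the 9902 genes, was below 0.05. Errors of log2 changes are standard errors. Signal stands in place of a count depth: 12191 to 14806 probes were detected per array, the upper quartile of the signal ran from 186.8 to 575.75, and the median 95% interval of a difference extended 0.34 to each side for the members and 0.40 for all genes. The script was tested on simulated data.

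The members, the related gene lists and the settings were chosen with earlier results of these data known. Named with values were the members called in a comparison, MCM2, MCM7, CDC6, CDT1, CDC45, PCNA, POLE2, TYMS, TK1, RRM1 and RRM2, and the 3 largest changes in each direction with E2, DHT, MPA and E2L+P4 against vehicle. Members named for other reasons are said to be chosen after their values were seen.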

Additional observations from a re-analysis of the deposited data

Results flagged for a closer look

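Among 198 groups of 4 arrays (21 named members and the member mean, in 9 groups), 14 held an array whose gap to its nearest neighbour exceeded Dixon's critical value, where chance gives about 1 group in 20, or 9.9. Values are log2 levels. In the E2L+P4 group replicate 4 stood apart 4 times. CDC45 was at 13.10 there, with the nearest array at 12.89, DTL at 10.34 (nearest 10.99), PCNA at 10.37 (nearest 12.26) and RFC2 at 8.64 (nearest 10.00). This array lies in the set numbered 4, in which PCNA, DTL and RFC2 were low on arrays of other groups too. In the same group RRM2 was at 11.89 on replicate 2, one of the arrays in doubt, with the nearest at 12.71.

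POLE2, the polymerase epsilon subunit, appeared 3 times. It was at 9.83 on MPA replicate 4 (nearest 10.45), at 10.49 on E2+P4 replicate 3 (nearest 10.68) and at 11.28 on vehicle replicate 1 (nearest 10.64). RRM1 was at 13.06 on DHT replicate 1 (nearest 13.23) and at 13.32 on E2+P4 replicate 2 (nearest 13.47). RFC2 was also apart on E2+DHT replicate 1, at 8.99 (nearest 9.87), an array of the set numbered 3. GINS2 was at 12.78 on E2+MPA replicate 3 (nearest 13.24), MCM7 at 13.40 on MPA replicate 4 (nearest 13.29) and ORC1 at 8.66 on E2+DHT replicate 4 (nearest 8.51). The call of CDC45 with E2L+P4 held without replicate 4, as it did without any other single array.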

How the results depend on the processing

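The numbers of members called moved with the setting. No call of a single member reversed its direction, while some medians of the members changed sign. With array weights the calls numbered 11 (E2), 8 (P4), 2 (MPA), 5 (DHT), 9 (E2+P4), 3 (E2+MPA), 11 (E2+DHT) and 15 (E2L+P4) against vehicle, 19 in E2+DHT against E2, 12 in E2+P4 against P4, 13 in E2L+P4 against P4, 11 in E2+DHT against DHT, 14 in DHT against P4, 9 in DHT against MPA, 7 in E2+DHT against E2+P4 and 10 for the interaction of E2 and DHT. The shares of all genes called in the same comparisons, in the same order, were 6.14%, 14.2%, 13%, 8.65%, 10.4%, 8.11%, 23% and 27.8% against vehicle, and 22.4%, 5.84%, 15%, 33%, 36.2%, 30.1%, 5.15% and 23.1%. Cyclic loess gave 3 (E2), 4 (E2+P4) and 6 (E2L+P4) against vehicle, where 1.93%, 2.17% and 6.7% of all genes were called. In what follows the share of all genes called stands in brackets after each count. The sets of 6 as a factor gave 1 in E2+MPA against vehicle (6.42%), and the same without the 2 arrays in doubt gave 1 there (6.47%) and 0 in DHT against P4 (0.97%). Detection on all arrays gave 1 for E2+P4 against vehicle (1.39%). The mean of all probes gave 0 for DHT against vehicle (2.29%), 1 in E2+DHT against DHT (1.13%) and 1 in E2+MPA against vehicle (3.96%). Fitting only the groups compared gave 0 in DHT against P4 (1.11%) and in DHT (0.323%), E2+P4 (0.879%) and E2L+P4 (0.768%) against vehicle. It gave 4 in E2+P4 against P4 (3.28%), which were GINS3, LIG1, MCM2 and MCM5. A common median gave 0 in DHT against P4 (1.21%) and in DHT (2.0%) and E2+P4 (1.83%) against vehicle, and 1 in E2L+P4 against vehicle (5.57%). The value table gave 0 in DHT against P4 (1.25%) and in DHT against vehicle (2.53%), 1 in E2 against vehicle (1.67%) and 2 in E2+P4 against P4 (1.6%). Without the 2 arrays in doubt, E2+P4 against vehicle had 1 (2.19%). Without these and vehicle replicate 1, a setting chosen after seeing the data, it had 0 (1.47%), as had DHT against vehicle (1.59%). The counts were then 1 in E2L+P4 against vehicle (3.85%), 1 in E2+MPA against MPA (2.12%) and 2 in DHT against P4 (2.02%). The cause of these moves was not tested.

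Leaving out 1 array at a time gave 0 to 5 calls in DHT against P4 (5 without DHT replicate 3, where 8.34% of all genes were called), 0 to 2 in DHT and in E2 against vehicle, 0 to 1 in E2+DHT against DHT, in E2+DHT and in E2+MPA against vehicle and in E2+MPA against E2, 0 to 2 in E2+MPA against E2+P4 (without E2+MPA replicate 1), 0 to 8 in E2+MPA against MPA (8 and 6 without E2+MPA replicates 1 and 2, where 5.89% and 3.59% were), 0 to 5 in E2+P4, 1 to 7 in E2L+P4, 0 to 10 in MPA and 0 to 4 in P4 against vehicle. For E2+P4, E2L+P4, MPA and P4 the highest count came without vehicle replicate 2, where 3.35%, 14.5%, 18.2% and 12.3% of all genes were called. The 3 interactions and the other 9 comparisons had 0 throughout.

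Same-numbered samples of different groups deviated together little more than other pairs. The median correlation of deviations was 0.0443, with 65 of 144 pairs over 0.1, against -0.0288 and 166 of 432 for other pairs. Samples of the same set of 6 had a median of 0.256, and the replicate numbers were not used as pairs in the main fit. Since deviations also followed the sets, this check cannot tell whether same-numbered samples share more than a number. With the replicate block E2 against vehicle and E2+P4 against P4 each had 1 call in place of 0, where 1.31% and 1.26% of all genes were called, and no other count moved past 1.5 times.

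The medians of E2 against vehicle, DHT against vehicle, E2+DHT against E2 and of E2 added to P4, MPA or DHT kept their sign under the 48 planned settings. That of P4 against vehicle did not (0.05 in the value table), nor did those of E2+DHT against vehicle, E2+P4 against E2, E2L+P4 against E2+P4, DHT against MPA, E2+MPA against E2+P4 and the interactions. The value table moved the median of all genes by over 0.1 in several comparisons, by 0.182 for P4, 0.192 for MPA, 0.153 for E2+P4, 0.15 for E2L+P4 and 0.145 for E2+DHT against vehicle. Among all genes called, the share higher was 41.2% with MPA against vehicle and 64.4% in the value table, 38.1% and 56.4% with E2L+P4, 59.5% and 74.1% with E2+P4, 43.9% and 61.4% with E2+DHT, 50.1% and 62.6% with E2+MPA, 82.3% and 66.1% in DHT against P4, 86.7% and 62.1% in DHT against MPA, 70.4% and 81.9% in E2+DHT against E2 and 63.6% and 78.1% in E2+MPA against E2. With cyclic loess this share was 57.3% with MPA, 55.5% with E2L+P4 and 57.6% with E2+DHT against vehicle, and 76.2% in DHT against MPA. Normalisation by vsn, the authors' choice, was planned and could not be run without that package. The 4 arrays per group limit what can be detected, and changes under about 0.34 on the log2 scale lie inside the typical interval of a member.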

Other observations

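The related genes outside the list moved in part. With E2 against vehicle, 16 of 23 replication accessory genes lay above 0 (median 0.14) and 9 of 10 genes of histone and methylation upkeep in S phase did (median 0.17), with 0 called in either list. Over all genes 48.2% lay above 0, the median was -0.01 and 1.37% were called. Mitosis genes had a median of 0.08. MYB, a transcription factor known as an estrogen target, stood at 11.64, 11.14, 11.72 and 11.54 (log2 level) with E2, against 10.69, 10.91, 10.81 and 10.95 with vehicle, without overlap. It rose with E2 (0.67 ± 0.12, SE, adjusted p = 0.000896 in limma) and with E2+P4 (0.76, adjusted p = 0.000154). MYB rose as well with E2+DHT (0.78, adjusted p = 6.28e-05) and with E2+MPA (0.46, adjusted p = 0.0273). RBL2, a pocket protein that holds E2F genes silent in resting cells, fell with E2+P4 (-0.56, adjusted p = 0.0211) and with E2L+P4 (-0.68, adjusted p = 0.00157). It fell with E2+DHT too (-0.53, adjusted p = 0.0155), a group whose members had a median of -0.02 against vehicle. All E2L+P4 arrays of RBL2 (10.73 to 11.04) lay below all vehicle arrays (11.29 to 11.91).

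With DHT against vehicle, 17 of 21 G1 to S regulators lay below 0 (median -0.32), 8 of them at an unadjusted p under 0.05. Over all genes 44.6% lay above 0, the median was -0.03 and 8.89% were lower at that level. E2F7, an E2F family repressor, fell (-0.70 ± 0.17, adjusted p = 0.0223 in limma), where 1.3% of all genes fell. It stood at 8.73 to 9.20 with DHT against 9.41 to 10.26 with vehicle. WDHD1, which links the helicase to the primase, fell too (-0.59 ± 0.15, adjusted p = 0.0206). PRPS1, which makes the ribose phosphate for nucleotide synthesis, was the exception and rose with DHT (0.55 ± 0.096, adjusted p = 0.000623) and in E2+DHT against E2 (0.51, adjusted p = 0.00253), while the median of the 26 nucleotide synthesis genes was -0.17. CDC7, the kinase that starts origin firing, was lower with DHT than with P4 (-1.11, adjusted p = 0.0459). These lists were measured on the same arrays as the members, and their values were not recomputed under other settings.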
